A study of Rattus norvegicus with 10 samples.

Results

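The islet neuropeptide genes are a set of 10 precursor genes, Npy, Cartpt, Adcyap1, Vip, Gal, Penk, Ucn3, Tac1, Nmb and Grp, taken by gene symbol from the array table. A probeset, the group of short probes that reads a transcript, belonged to the set when the platform annotation gave it 1 gene symbol and that symbol was on the list. This found 10 probesets for 9 of the 10 genes, out of 14217 genes that the annotation names with 1 symbol. Adcyap1 had 2 probesets, and Ucn3, the precursor of the beta cell peptide urocortin 3, had no probeset under that symbol and was not analysed here. Of the 9 genes, 3 (Npy, Cartpt and Penk) passed the filter on low signals, as did 10301 of the 14217.

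Islets were isolated from male Wistar rats aged 7 weeks that were caged singly and ate standard chow, with 8% of calories as fat, or a cafeteria diet, with 66% of calories as fat, for 10 days. The labels name no transgene and no drug. Each diet has 5 arrays, which the labels call biological replicates, and the labels do not say whether an array held islets of 1 animal. Groups follow the array titles, and the source names and descriptions name the same diet as the titles. The diet characteristic of every sample names the other diet. Under it every cafeteria minus standard difference below would change sign at the same size and p-value, and the correlations would stay as they are.

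Neuropeptides are short signalling peptides cut from larger precursor proteins and released from dense core granules. In the pancreas they come from endocrine cells and from nerve fibres that supply the islets. Galanin and neuropeptide Y restrain insulin release, whereas VIP, PACAP and the bombesin-like peptides promote it. A nerve fibre's peptide is made in the neuron's cell body, so most of its messenger RNA lies outside the islet that the fibre supplies.

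The arrays were alike in scale. Median signals ran from 151 to 173, and pairs of arrays correlated with r from 0.958 to 0.973 across probesets on the log2 scale. Islet hormone markers were bright: Ins2 read 14918 to 26697 and Gcg 24584 to 38613 over the 10 arrays. Markers of other cells were present too. The summed signal of 10 acinar cell markers ran from 8768 to 21038 in the standard arrays and from 4111 to 21770 in the cafeteria arrays, and that of 14 of 15 listed immune markers from 5618 to 22082 and from 5733 to 22947. Of 11 measured neuron markers, 3 passed the filter (Prph, Nefm and Nefh, which encode intermediate filament proteins of neurons), and the summed signal of the 11 was 1262 to 1928 in the standard and 1512 to 1849 in the cafeteria arrays. No marker of these lists was at 0. The RNA quality ratio, the 3 prime over the 5 prime control signal of GAPDH, averaged 1.16 in the standard and 1.01 in the cafeteria group. A fit with this ratio as covariate therefore separates it only in part from diet. The mean log2 value of the marker lists differed, cafeteria minus standard, by −0.63 for immune, −0.33 for acinar and 0.16 for neuron markers.

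The proximal promoters of 4 members are shown. They are Npy and Cartpt, the members with clear signal, and Vip and Gal. The signals of Vip and Gal varied together across arrays, in a relation that did not pass adjustment. No array result uses these sequences, and a link between them and the signals was not tested. Each is RefSeq sequence of assembly GRCr8, read 5′ to 3′ on the gene's own strand from 250 bases before the annotated start to 50 bases after it. The windows are chr4:80211861-80212160 on the plus strand for Npy, chr2:32991186-32991485 on the minus strand for Cartpt, chr1:44470230-44470529 on the plus strand for Vip and chr1:210084523-210084822 on the minus strand for Gal. Capitals mark the letters TGACG on either strand, the core of the cAMP response element through which cAMP signalling acts on many peptide genes, and TATAAA on either strand, the TATA motif.
Npy: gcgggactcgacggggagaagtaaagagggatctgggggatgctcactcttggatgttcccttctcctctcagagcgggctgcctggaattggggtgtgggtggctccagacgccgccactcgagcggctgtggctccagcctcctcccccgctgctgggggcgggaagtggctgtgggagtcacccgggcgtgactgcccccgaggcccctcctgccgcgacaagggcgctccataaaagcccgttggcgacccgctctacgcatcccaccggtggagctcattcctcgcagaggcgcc
Cartpt: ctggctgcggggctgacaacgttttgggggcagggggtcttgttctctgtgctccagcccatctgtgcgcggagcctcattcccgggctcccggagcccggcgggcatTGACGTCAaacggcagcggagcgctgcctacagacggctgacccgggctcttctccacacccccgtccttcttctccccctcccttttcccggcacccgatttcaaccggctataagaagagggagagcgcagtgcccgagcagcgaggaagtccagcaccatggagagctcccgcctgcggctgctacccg
Vip: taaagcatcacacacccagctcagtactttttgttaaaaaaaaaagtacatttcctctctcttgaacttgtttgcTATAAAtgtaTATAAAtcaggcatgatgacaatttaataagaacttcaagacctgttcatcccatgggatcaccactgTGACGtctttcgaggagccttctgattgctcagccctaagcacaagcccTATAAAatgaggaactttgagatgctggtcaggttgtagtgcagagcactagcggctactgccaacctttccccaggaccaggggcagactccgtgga
Gal: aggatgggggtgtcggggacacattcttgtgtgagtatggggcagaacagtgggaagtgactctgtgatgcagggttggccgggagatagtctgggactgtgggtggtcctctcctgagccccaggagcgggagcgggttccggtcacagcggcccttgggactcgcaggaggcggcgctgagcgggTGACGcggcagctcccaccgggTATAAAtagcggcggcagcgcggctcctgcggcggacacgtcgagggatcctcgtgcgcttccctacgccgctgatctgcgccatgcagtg

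Of the 9 members with a RefSeq entry, which include Ucn3 but not Penk, only Cartpt carried the full palindrome TGACGTCA, beginning 142 bases before its start. The palindrome lies in 1.83% of 33469 promoter windows of this length. The core TGACG lay in 6 of the 9 windows (Vip, Gal, Cartpt, Tac1, Ucn3 and Grp) and in 21.2% of all windows; the full palindrome holds it on both strands. In Vip it began 97 bases and in Gal 63 bases before the start, with the nearest TATAAA at 48 and 41 bases before it. TATAAA lay in 4 of the 9 windows and in 14.2% of all. The Npy window held none of these strings of letters. These are matches of letters, not measured binding sites, and the motifs were picked with the data known.

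Npy and Cartpt were the members with signals far above background on every array. The table has no detection calls, so background was read from 24 genes of other organs, such as protamine, crystallin and pituitary hormone genes, whose mean signals ran from 3.91 to 148 with a median of 31.6. Probes differ in affinity, so this is a rough guide, and signals of different genes cannot be ranked. Npy and Cartpt exceeded each of the 24 genes on all 10 arrays. The other 8 member probesets had mean signals within the range of these genes.

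**Figure D1:**
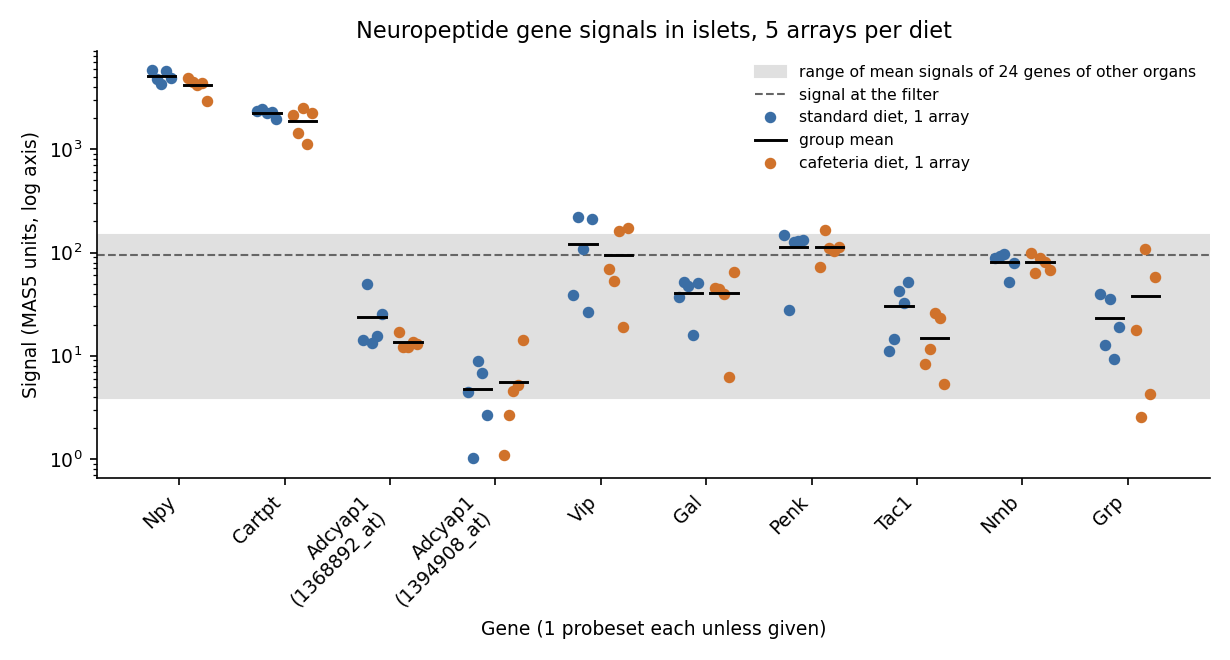
Signal of each member probeset on each array (log axis, MAS5 units), in blue for the standard and orange for the cafeteria diet, with bars at group means; the grey band spans the mean signals of 24 genes of other organs (3.91 to 148) and the dashed line is the signal at the filter (94.8). Npy and Cartpt lie above the band on all 10 arrays, and Vip spreads from 19.0 to 220.0.

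Npy (probeset 1387154_at) encodes neuropeptide Y, a peptide of sympathetic nerves that islet cells also make. Its signal in standard replicates 1 to 5 was 5846, 4826, 4324, 5734 and 4900, and in cafeteria replicates 1 to 5 it was 4918, 4477, 4170, 4357 and 2927. The groups overlapped: 4 of 5 cafeteria arrays were under the standard median and 2 were under the lowest standard array. The means were 5126 ± 647 (SD, n = 5) and 4170 ± 747 (SD, n = 5). The log2 difference, cafeteria minus standard, was −0.31 with an SE of 0.142 and a 95% confidence interval from −0.62 to 0.0033, a 1.24-fold lower level. Npy did not pass (limma adjusted p = 0.48 over 18625 probesets). In islets measured whole, fewer cells of a type and less RNA per cell cannot be told apart.

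Cafeteria replicate 5 was the lowest Npy array, and without it the difference was −0.19 (limma adjusted p = 0.62; the lowest under any setting tried was 0.329). The difference was −0.33 with the acinar mean, −0.31 with the immune mean and −0.43 with the GAPDH ratio in the fit. That array also had the highest mean log2 value of 7 beta cell markers, 13.79 against 13.41 to 13.57 on the other arrays. Across the 10 arrays Npy and this beta cell mean had Pearson's r = −0.723 (permutation p = 0.0499) and Spearman's rho = −0.406 (permutation p = 0.247). The relation did not pass adjustment over its family of 30 relations (adjusted p = 0.748). Without the 2 arrays farthest from the median of the beta cell mean, cafeteria replicates 1 and 5, r was 0.027, so the relation rests on those arrays.

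Cartpt (probeset 1368585_at) encodes the CART peptide precursor, made in the rat pancreas by delta cells and nerves. Standard replicates 1 to 5 read 2334, 2465, 2238, 2317 and 1986, a narrow range. Cafeteria replicates 1 to 5 read 2136, 1436, 2518, 1114 and 2230. Replicates 2 and 4 of the cafeteria group lay under every standard array, while the other 3 lay inside or above the standard range. The coefficient of variation was 7.83% in the standard and 31.1% in the cafeteria group; the difference in spread was not tested.

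The mean Cartpt signal was 2268 ± 178 (SD, n = 5) in the standard and 1887 ± 587 (SD, n = 5) in the cafeteria group. The log2 difference was −0.32 (SE 0.20, 95% confidence interval −0.76 to 0.12), a 1.25-fold lower level that did not pass (limma adjusted p = 0.568). Without cafeteria replicate 4 it was −0.15 (limma adjusted p = 0.755). Adjusted for the GAPDH ratio it was −0.20 (SE 0.295), for the immune marker mean −0.23 (SE 0.227) and for the acinar marker mean −0.41 (SE 0.179, limma adjusted p = 0.428).

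**Figure D2:**
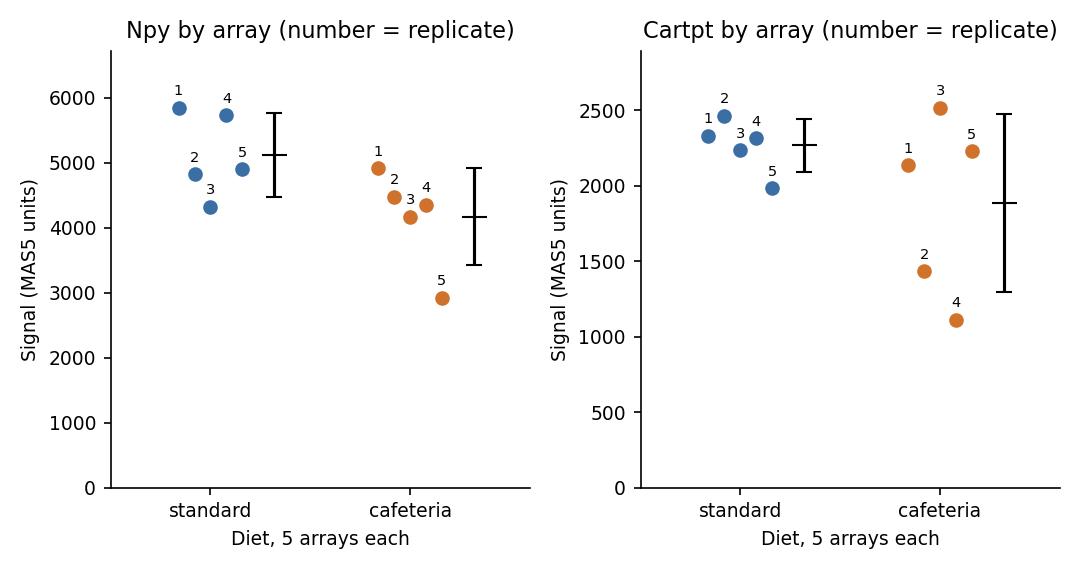
Signal (MAS5 units, axis from 0) of Npy on the left and Cartpt on the right for 5 standard and 5 cafeteria arrays, each point 1 array with its replicate number; the bar beside each group is the mean ± SD. Cafeteria replicate 5 is lowest for Npy at 2927, and cafeteria replicates 4 and 2 are lowest for Cartpt at 1114 and 1436.

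The arrays lowest for Npy were not those lowest for Cartpt. The genes had Pearson's r = 0.101 (permutation p = 0.726) and Spearman's rho = 0.0546 (permutation p = 0.891) over the 10 arrays, with an adjusted p of 0.874 over the family of 30. On deviations from the group means r was −0.226 (permutation p = 0.524), and without the 2 arrays farthest from the Npy median it was 0.293.

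Penk (probeset 1367949_at) encodes proenkephalin, the precursor of the enkephalins, opioid peptides that neurons, immune cells and fibroblasts can also make. Standard replicates 1 to 5 read 146, 27.6, 127, 130 and 133, and cafeteria replicates 1 to 5 read 72.9, 165, 111, 104 and 113. Standard replicate 2 was the lowest of the 10, and the groups overlapped. Means were 113 ± 48.2 and 113 ± 33.2 (SD, n = 5 each), with a log2 difference of 0.11 (SE 0.347, limma adjusted p = 0.92).

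The mean of Penk stood just above the filter, and 1 of the 24 genes of other organs had a higher one. Without standard replicate 2 the difference turned to −0.26, and without cafeteria replicate 2 to −0.02. Adjusted for the GAPDH ratio it was 0.87 (SE 0.398, limma adjusted p = 0.488), and for the immune marker mean 0.42 (SE 0.351). Standard replicate 2, the lowest Penk array, also had the lowest GAPDH ratio of its group, at 1.00. How far the value adjusted for that ratio rests on this array was not tested. Penk had r = 0.632 (permutation p = 0.0358) and rho = 0.697 (permutation p = 0.0303) with the mean of 9 fibroblast and pericyte markers over the 10 arrays. That relation had an adjusted p of 0.748, and an r of 0.577 without standard replicate 5 and cafeteria replicate 2.

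Over all tested probesets, 0 of 18625 (0%) had an adjusted p under 0.05 by limma, and 0 of the 3 tested members did. At an unadjusted p under 0.05 there were 1941 probesets (10.4%), 915 of them lower in the cafeteria group (4.91%), and again 0 of the 3 members. Npy ranked 2021 by p, just outside that threshold, and was under it in 8 of the 23 other settings tried, and Cartpt in 2, so the 0 depends on the setting. In 454 probesets (2.44%) the groups did not overlap, and 0 of the 3 tested members were among those. Of the 3 members tested, 2 had a lower mean log2 value in the cafeteria group and 1 a higher one. Over all tested genes, 5285 of 10301 had a lower one. The median difference of the 3 members, −0.31, is the value of Npy itself, beside a median of −0.0045 over the 10301 genes.

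Vip (probeset 1377146_at) encodes vasoactive intestinal peptide, a transmitter of parasympathetic pancreatic neurons that raises cAMP in its target cells. Standard replicates 1 to 5 read 38.4, 220.0, 109, 26.4 and 211, and cafeteria replicates 1 to 5 read 69.2, 53.3, 161, 19.0 and 172. The highest value was 11.6 times the lowest, and high and low arrays occurred in both groups. On 4 arrays (standard replicates 2 and 5, cafeteria replicates 3 and 5) Vip exceeded all 24 genes of other organs, and on 6 arrays it did not. Its SD within groups, 1.11 on the log2 scale, was larger than that of all 24 of those genes (median 0.42, highest 1.08). Vip missed the filter, so it has no test. Its log2 difference was −0.24 (SE 0.621). Over all settings tried it ran from −0.60 adjusted for the GAPDH ratio to 0.12 without cafeteria replicate 4.

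Gal (probeset 1387088_at) encodes galanin, a peptide of pancreatic nerves. Standard replicates 1 to 5 read 37.1, 51.9, 47.8, 15.8 and 50.7, and cafeteria replicates 1 to 5 read 45.8, 44.2, 39.9, 6.28 and 64.5. Replicate 4 was the lowest of each group, and these were also the lowest Vip arrays of each group. Signals of this size lie among those of the genes of other organs, 8 of which had a higher mean. The log2 difference was −0.085 (SE 0.357), with no test. Over all settings tried it ran from −0.29 without standard replicate 4 to 0.24 without cafeteria replicate 4.

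Vip and Gal varied together over the 10 arrays, with Pearson's r = 0.804 (permutation p = 0.00062) and Spearman's rho = 0.891 (permutation p = 0.00118). This relation was looked at after the values of the members below the filter were seen. Among 117 relations of the 9 members with each other and with 9 marker means its adjusted p was 0.0725 (0.138 for rho), and 0 passed. The permutation takes the 10 arrays as independent. On deviations from the group means r was 0.803 (permutation p = 0.00082). Without standard replicate 4 and cafeteria replicate 4 r was 0.623 (permutation p = 0.0968), so its strength rests in part on those arrays. The summed signal of the 24 genes of other organs was also lowest in each group on replicate 4, at 830 and 710. It ran up to 1133 in the standard and 1116 in the cafeteria arrays. Standard replicate 5, high for Vip and Gal, was nearly as low at 844. A link of this sum with the relation was not tested. Vip had r = 0.624 (permutation p = 0.0548) and rho = 0.60 (permutation p = 0.0724) with the mean of the 11 neuron markers, adjusted p = 0.712, and r = 0.363 without standard replicates 4 and 5. Gal had r = 0.501 (permutation p = 0.138) with the same mean. With the mean of 6 Schwann cell and glia markers r was 0.656 for Gal (permutation p = 0.0398, adjusted p = 0.712). For Vip it was 0.559 (permutation p = 0.0931, adjusted p = 0.804). The neuron markers were therefore not the only list that varied with these genes.

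**Figure D3:**
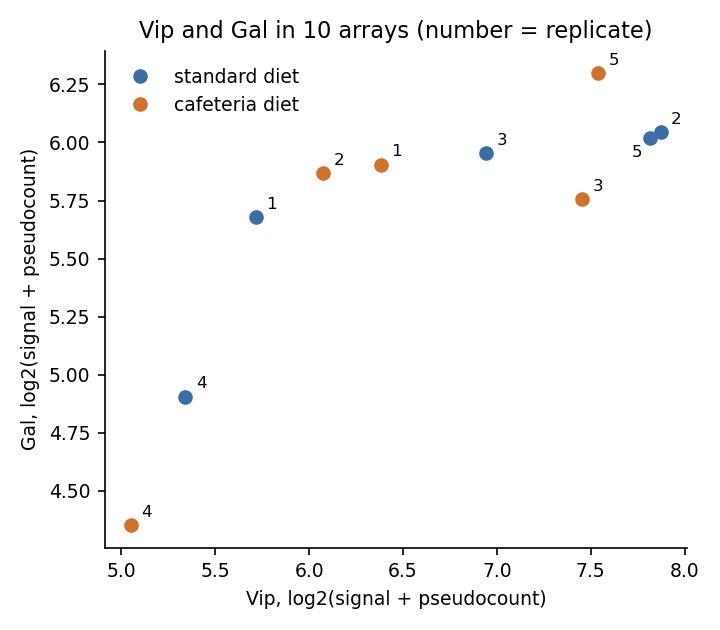
Gal against Vip, both as log2(signal + 14.15), in 10 arrays, blue for the standard and orange for the cafeteria diet, numbered by replicate. Replicate 4 of each group is at the lower left, and the correlation is 0.804 with and 0.623 without these arrays.

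Nmb and Grp encode neuromedin B and gastrin-releasing peptide, the bombesin-like peptides. Nmb (probeset 1378310_at) read 51.8 to 96.2 in the standard arrays (median 88.4) and 63.4 to 99.5 in the cafeteria arrays (median 81.2). Its log2 difference was −0.015 (SE 0.164, 95% confidence interval −0.38 to 0.35). Grp (probeset 1368611_at) ranged from 9.26 to 39.2 (median 18.8) and from 2.56 to 108 (median 17.6), with cafeteria replicate 3 highest and cafeteria replicate 2 lowest. Its log2 difference was 0.13 (SE 0.54), and over all settings tried it ran from −0.29 without cafeteria replicate 3 to 0.86 adjusted for the GAPDH ratio. Among these dim members Nmb was the steadier across arrays.

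Tac1 and Adcyap1 were close to the floor of the array. Tac1 (probeset 1369309_a_at), the precursor of substance P and neurokinin A of sensory nerves, read 11.2, 14.5, 42.5, 32.1 and 51.3 in the standard replicates and 8.34, 11.6, 26.0, 23.3 and 5.37 in the cafeteria replicates. Every cafeteria array was under the standard median of 32.1, and the groups overlapped. The log2 difference was −0.57 (SE 0.306), and over all settings tried it ran from −0.97 with a pseudocount of 1 to −0.29 with the 25th percentile of all values as pseudocount. Adcyap1, the precursor of PACAP, read 12.0 to 49.1 on its brighter probeset (1368892_at) and 1.01 to 14.1 on the other (1394908_at). Standard replicates 2 and 5 were the highest on the brighter one, at 49.1 and 25.5. The log2 differences were −0.36 (SE 0.216) and 0.038 (SE 0.178), from signals among those of the genes of other organs. The first was −0.16 without standard replicate 2, and the second was −0.10 without cafeteria replicate 5.

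The receptors that these peptides act on gave 18 measured genes of 21 listed; Crhr1, Crhr2 and Brs3 had no probeset under their symbols. Of the 18, 7 passed the filter, 3 with a higher and 4 with a lower mean in the cafeteria group and 0 past the adjusted or the unadjusted threshold. Their median log2 difference was −0.089, and −0.012 over all 18 without the filter. It was −0.022 without cafeteria replicate 3, −0.18 with the filter at the 70th percentile and 0.025 adjusted for the GAPDH ratio. The receptors of VIP and PACAP were all among the 7. Vipr2 had mean signals of 841 and 745 in the standard and cafeteria groups (log2 difference −0.17, SE 0.10, limma adjusted p = 0.539). For Adcyap1r1, the PACAP receptor, they were 356 and 408 (0.21, SE 0.185), and for Vipr1 225 and 186 (−0.23, SE 0.187).

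Of the neuropeptide Y receptor family, Npy1r (144 and 137, log2 difference −0.089, SE 0.137) and Npy4r (171 and 175, 0.020, SE 0.147) passed the filter, and Npy2r and Npy5r did not. Both Npy1r means lay within the range of the 24 genes of other organs, up to 148. Since 2 of those genes passed the filter too, passing it does not show expression. The galanin receptor Galr2 (172 and 155, −0.15, SE 0.155) and the neurokinin B receptor Tacr3 (243 and 305, 0.33, SE 0.274) passed as well. The opioid receptors Oprd1, Oprk1 and Oprm1, the tachykinin receptors Tacr1 and Tacr2, the bombesin-like peptide receptors Nmbr and Grpr, and the galanin receptors Galr1 and Galr3 missed the filter.

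Most enzymes and chaperones that mature peptide precursors were bright. Pcsk1 of this list had no probeset under its symbol. Of 11 measured processing genes of 12 listed, 10 were tested, 8 of them with a higher and 2 with a lower mean in the cafeteria group, and a median log2 difference of 0.094. At an unadjusted p under 0.05 there were 2, both higher, and 0 passed adjustment; over all tested genes 5016 of 10301 had a higher mean, and 10.4% of probesets were under 0.05. The 2 were Cpe, carboxypeptidase E, which trims the basic residues left after cleavage (26277 ± 1297 and 31234 ± 4290, SD, n = 5 each), and Pcsk2, prohormone convertase 2 (22383 ± 876 and 25679 ± 2666, SD, n = 5 each). Cpe differed by 0.24 (SE 0.099, limma adjusted p = 0.448) and Pcsk2 by 0.19 (SE 0.084, limma adjusted p = 0.464). Cafeteria replicate 5 was the highest array for both, at 37654 for Cpe and 29984 for Pcsk2. Their differences without that array are not given here. Dpp4, which cuts neuropeptide Y and related peptides and stood near the filter, differed by 0.22 (SE 0.112) and the amidating enzyme Pam by 0.19 (SE 0.10). Bright islet hormone genes, named after their values were seen, had differences of like size: Gcg 0.23 (SE 0.098), Sst 0.21 (SE 0.095), Iapp 0.23 (SE 0.109), Ins2 0.21 (SE 0.147) and Ppy 0.20 (SE 0.116). Ins1 differed by 0.16 (SE 0.146). Of the 7 measured beta cell markers, 5 had a higher mean in the cafeteria group. The 2 with a lower one were Nkx6-1 (−0.15, SE 0.082) and Pdx1 (−0.21, SE 0.080). The median of the processing genes was 0.036 with quantile normalization and 0.052 without cafeteria replicate 2.

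**Figure D4:**
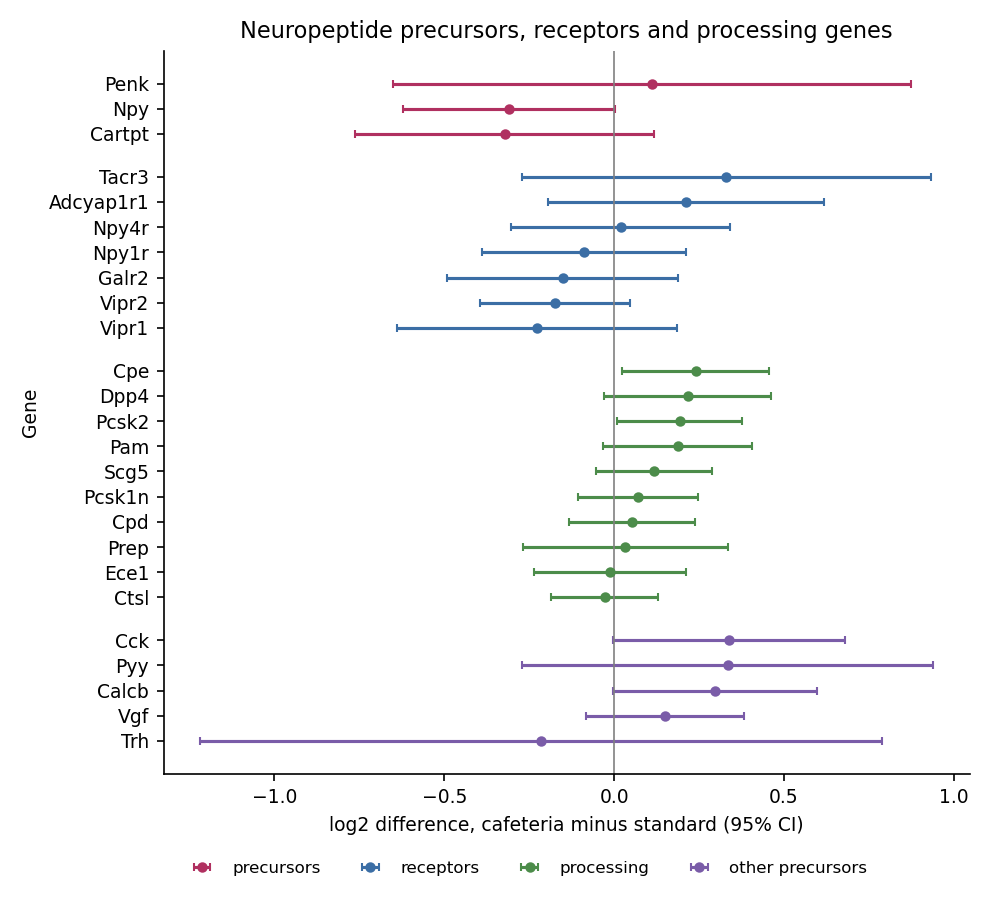
log2 difference, cafeteria minus standard, with its 95% confidence interval from limma, for each tested gene: 3 precursors of the set, 7 receptors, 10 processing genes and 5 other precursors. The intervals of Cpe and Pcsk2 lie above 0, and those of the other genes include 0.

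Of 25 other neuropeptide precursors listed, 22 were measured and 5 passed the filter, 4 with a higher and 1 with a lower mean in the cafeteria group, 0 at an unadjusted p under 0.05 and 0 past adjustment. Cck, cholecystokinin, differed by 0.34 (SE 0.156, means 123 and 161), and Calcb, a calcitonin gene-related peptide precursor, by 0.30 (SE 0.137, means 778 and 953), each with a limma adjusted p of 0.48. Vgf, a granule protein precursor, differed by 0.15 (SE 0.106) and Pyy, peptide YY of the neuropeptide Y family, by 0.33 (SE 0.275). Trh, thyrotropin-releasing hormone, which rat beta cells make early in life, was named after its values were seen. It ranged from 869 to 2117 in the standard and from 385 to 2325 in the cafeteria arrays, with cafeteria replicate 5, the lowest Npy array, lowest here too. Its log2 difference was −0.21 (SE 0.457).

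For each tested member, the genes with the most similar pattern over the 10 arrays were sought among 10233 others. The most like Npy were Fbxl6 (Pearson's r = 0.937) and Fxr1 (0.932), and 194 genes had an r above 0.8. The most like Cartpt were Rnf169 (0.908) and Dolpp1 (0.899), with 18 genes above 0.8. The most like Penk were Arhgef40 (0.863) and Sipa1 (0.841), with 6 genes above 0.8. With 10 arrays and this many genes such values describe these arrays and carry no test.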

How the data were processed

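Expression was measured on 10 Affymetrix rat arrays of 1 colour. The authors deposited 1 intensity per probeset and array on a linear scale, made with MAS5 per the submitters' processing notes, which give no version. Trimming 2% at each end gave a mean of 500.1 to 500.2 on every array, so the authors' values were already scaled to a common level, which hides any change in total RNA. The table holds 31099 probesets, 57 of them controls, and no detection calls; the genome build is not given in the sources used here. The number of arrays limits the precision.

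Symbols came from the platform annotation (20826 probesets with 1 symbol). Signals were taken as log2(value + 14.15), the pseudocount being the 10th percentile of all values, which understates changes of dim genes. The 18625 probesets whose mean on this scale lay over the 40th percentile were tested with limma 3.58.1 in R 4.3.3. The fit (lmFit, eBayes) had 8 residual and 3.11 prior degrees of freedom, with Benjamini-Hochberg adjustment at 0.05. It was tested on simulated data, with changes larger than the differences of the tested members. Values for members below the filter come from the same fit without it. A gene is named from its brightest probeset. Correlations used 100000 permutations, two-sided (Python 3.11.15).

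Named genes were the members, the tested receptors, up to 4 processing and 4 other precursor genes of lowest p, and the 2 genes most like each tested member. The members, lists and motifs were chosen with earlier results of these data known. Alternatives covered the pseudocount, filter, normalization, covariates, a replicate block and each array left out.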

Additional observations from a re-analysis of the deposited data

Results flagged for a closer look

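Within each diet group of 5 arrays, the highest and lowest array was compared with the other 4 by Dixon's criterion at the 95% level. Of 82 such sets, for the named genes and the marker means, 7 held an array far from the rest, where chance marks about 1 set in 20, or 4.1. The sets are not independent, since they include genes chosen for their likeness to a member, so these counts are not a test. All values are log2. Penk in standard replicate 2 was the lowest at 5.38 (others 7.15 to 7.33), and Arhgef40, chosen for its likeness to Penk, was lowest on the same array at 7.78 (others 8.22 to 8.37). Gal in cafeteria replicate 4 was the lowest at 4.35 (others 5.75 to 6.30). Rnf169, chosen for its likeness to Cartpt, was lowest there too, at 8.68 (others 8.95 to 9.04). Tacr3 in standard replicate 5 was the lowest at 6.99 (others 8.01 to 8.36). Pam in cafeteria replicate 5 was the highest at 14.66 (others 14.18 to 14.28), and the immune marker mean in cafeteria replicate 3 was the highest at 9.30 (others 7.66 to 7.94).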

How the results depend on the processing

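Of 23 alternatives, 10 dropped 1 array each. Under all 23, 0 member probesets passed the adjusted threshold. The count over all probesets was 0 under each setting but 1: without standard replicate 2 it was 1, a probeset of Emp1, named after its values were seen, so leaving out an array gave 0 to 1. Of 229 member values, 225 kept direction and call, or moved by less than the replicate SD. This count is a loose guide. Settings of the filter, the variance model and the replicate block leave a log2 difference itself unchanged. Members below the filter could change sign within the SD, as Vip, Gal, Nmb, Grp and the dimmer Adcyap1 probeset did. Npy ran from −0.43 to −0.19 and Cartpt from −0.44 to −0.15. Penk reversed without standard replicate 2 (−0.26, the lowest when an array was left out; the highest was 0.24) and without cafeteria replicate 2 (−0.02). The Adcyap1 probesets moved to −0.88 and 0.42 with the GAPDH ratio as covariate. Standard replicate 2, the highest array for the first of them, had the lowest GAPDH ratio of its group. With the replicate block the values were −0.31 for Npy (limma adjusted p = 0.368) and −0.32 for Cartpt (adjusted p = 0.523), and 0 probesets passed. Same-numbered arrays correlated in their deviations from the group means with r from −0.0017 to 0.296, and 2 of 5 arrays did so best with their own number. Not every pair was above 0.1, and the labels do not pair the arrays. The block lowered the SE of Vip from 0.621 to 0.361 and of Gal from 0.357 to 0.148. Among the correlations, Npy with the beta cell mean became 0.027 without the 2 farthest arrays, and Npy with Cartpt −0.226 on group deviations. The causes were not tested. Signals near background limit what Penk, Vip, Gal, Tac1, Nmb, Grp and Adcyap1 can show. The same holds for Npy1r, Dpp4 and Cck among the other genes named. Galr2, Npy4r and Vgf had both group means under 188, the highest single signal of the 24 genes of other organs. The cafeteria mean of Vipr1 was also under it, and Tacr3 fell to 113 on standard replicate 5.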
